A study of Homo sapiens with 6 samples.

Results

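Last-intron peaks are candidate polyadenylated 3′ ends that fall in the final intron of a gene, after the second-to-last exon and before the terminal one. They were taken from a single list of 200023 poly(A) 3′-seq peaks. A peak was a member when its summit lay in the last intron of the canonical transcript of a protein-coding gene with at least 3 introns, in no annotated exon, and in no window from 200 bp before to 600 bp after an annotated transcript end. Peaks with a genomic A stretch, here 18 or more A in 25 bases within 50 bp past the 3′ edge, were left out. The 3′ edge is the end of the peak nearest the 3′ end of the transcript, where the reads of this assay start. In all, 3177 peaks (1.59% of the list) met these criteria, in 1658 of the 16027 genes with such an intron.

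The list came from IMR-32, a human neuroblastoma cell line with amplified MYCN. Its 6 libraries comprised 2 DMSO controls, 2 samples treated with THZ531 (400 nM) over 2 h and 2 treated at the same dose over 6 h, each group in biological duplicate. THZ531 covalently inhibits CDK12 and CDK13, kinases that act with cyclin K on the C-terminal domain of RNA polymerase II. Per the study's methods, reads were pooled before peaks were called (assumed here to be those of the 6 libraries), so no peak has a value for a single library, a replicate error or a strand. DMSO and THZ531 could not be compared, and the depth of each library is unknown. The labelled cell type was checked on transcript ends: all 10 sympathetic neuroblast markers had a peak there, with 19 (DBH) to 123 (PHOX2A) reads at the summit, against 3 of 9 markers of other cell types, with 6 (COL3A1) to 15 (COL1A1) reads. PTPRC, CD3E, KRT14, PECAM1 and ALB were among those with none.

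An mRNA is cleaved and given its poly(A) tail downstream of a signal hexamer, most often AATAAA in the DNA, with a T-rich or GT-rich element after the cleavage site. Many introns hold such hexamers, and the U1 snRNP bound at the 5′ splice site keeps nearby ones silent. The last intron is a particular place, because removing it is coupled to cleavage at the end of the terminal exon. When cleavage wins over splicing there, the message loses only its last exon.

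The sequences below show members with the canonical signal, which in LEO1 lies past the last intron. They are 8 of the 10 tallest members, 1 per gene, in which AATAAA started 10 to 40 bp before the 3′ edge. Each has the 60 bases that end at the edge and the 40 bases after it, read from GRCh38 on the gene strand, 5′ to 3′, with that AATAAA in capitals.
NCAPH, chr2:96371054-96371153, + strand: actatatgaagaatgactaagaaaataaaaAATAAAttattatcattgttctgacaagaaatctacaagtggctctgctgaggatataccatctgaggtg
BIRC5, chr17:78221090-78221189, + strand: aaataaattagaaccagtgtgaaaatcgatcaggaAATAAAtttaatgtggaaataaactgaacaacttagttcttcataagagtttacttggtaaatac
TIMM23B, chr10:49965785-49965884, + strand: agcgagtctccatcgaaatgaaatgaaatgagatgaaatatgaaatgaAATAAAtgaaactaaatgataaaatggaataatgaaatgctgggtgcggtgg
LEO1, chr15:51937984-51938083, - strand: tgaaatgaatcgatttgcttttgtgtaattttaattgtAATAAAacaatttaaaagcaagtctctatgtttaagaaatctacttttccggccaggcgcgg
AOPEP, chr9:95084283-95084382, + strand: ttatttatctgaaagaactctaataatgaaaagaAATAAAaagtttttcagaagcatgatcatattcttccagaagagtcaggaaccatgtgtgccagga
TM4SF19-DYNLT2B, chr3:196316278-196316377, - strand: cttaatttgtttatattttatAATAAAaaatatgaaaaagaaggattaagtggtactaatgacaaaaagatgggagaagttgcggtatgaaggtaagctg
CHRNA5, chr15:78591563-78591662, + strand: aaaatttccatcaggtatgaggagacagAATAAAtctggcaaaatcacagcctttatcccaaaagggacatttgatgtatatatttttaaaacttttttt
FMO4, chr1:171341103-171341202, + strand: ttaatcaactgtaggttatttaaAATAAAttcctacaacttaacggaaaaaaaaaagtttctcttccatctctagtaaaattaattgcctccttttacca

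Their heights ran from 42 reads at the summit (NCAPH and BIRC5) to 34 reads (FMO4). Reads at the summit is the pileup of reads, each extended to 100 bp, over the highest point of the peak. By its default the peak caller keeps 1 read per start position and strand, so height counts distinct starts more than abundance. NCAPH encodes a condensin subunit and BIRC5 encodes survivin, both used in mitosis. CHRNA5 is a nicotinic receptor subunit and FMO4 a flavin-containing monooxygenase. The AATAAA started between 11 bp (TIMM23B) and 38 bp (TM4SF19-DYNLT2B) before the edge. The 8 peaks were not alike past the edge: at most 7 of any 25 bases were A for NCAPH and LEO1, but 15 for TIMM23B.

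The LEO1 peak shows the limit of placing peaks by their summit. LEO1 is a subunit of the PAF elongation complex. Its peak was 320 bp wide, its summit lay 8 bp before the terminal exon, and its 3′ edge lay inside the transcript-end window. The bases printed above for LEO1, with their AATAAA, thus held no base of its last intron. Among the members, 124 (3.90%) reached into an annotated exon with some base of the peak, 154 (4.85%) into an exon or a transcript-end window, and 20 had their 3′ edge in a transcript-end window of the same strand. The remaining members were clear of both. A second gene on the same strand covered the summit of 308 members (9.69%), among them the readthrough locus TM4SF19-DYNLT2B, and a gene on the opposite strand that of 397 (12.5%). As peaks carry no strand, reads from such a gene cannot be told apart from those of the gene with the last intron.

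Selection began with 6040 peaks whose summits lay in a last intron. Of these, 1063 lay in an exon of some annotated transcript and another 397 in a transcript-end window. A-rich sequence then took 1403 of the remaining 4580 peaks, or 30.6%. The 368 members with exactly 17 A in their richest 25 bases had a median of 9 reads, and 56.0% held a hexamer, while the 344 peaks just outside, with 18 A, had a median of 9 reads and 49.7% held one. The upper ends were less alike: 7.88% (5.54 to 11.1) of the members with 17 A had 20 reads or more, against 2.91% (1.59 to 5.27) of the peaks with 18 A. The tallest peak on each side is shown, with the richest 25 bases in capitals in the 20 bases up to the edge and the 50 after it.
TIMM23B, 17 A, chr10:49963611-49963680, + strand: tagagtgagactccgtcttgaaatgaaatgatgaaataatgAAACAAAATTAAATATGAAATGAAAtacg
BCL11B, 18 A, chr14:99222811-99222880, - strand: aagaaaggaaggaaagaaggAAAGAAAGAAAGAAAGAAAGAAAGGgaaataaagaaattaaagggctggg
The member in TIMM23B had 35 reads and the peak left out of BCL11B had 28. Both were picked after their values were seen.

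Last introns carried fewer peaks per base than the middle and first introns of the same genes. Usable bases, those in no exon and no transcript-end window, came to 57.0 Mb in last introns, 689 Mb in middle introns (neither first nor last) and 233 Mb in first introns. The 3177 members gave 0.0558 peaks per kb (95% interval 0.0538 to 0.0577). With the same criteria, 46833 peaks in middle introns gave 0.0679 per kb (0.0673 to 0.0686), and 21888 in first introns gave 0.0940 (0.0928 to 0.0953). The ratio of last to middle introns was 0.821 (0.791 to 0.851), and that of last to first introns was 0.593 (0.571 to 0.615). These intervals, like the others on shares and rates, cover counting error only, since the list has no replicates. They treat peaks as independent, though neighbouring peaks share a gene and its expression.

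The difference was about as large within genes. In the 4912 genes with peaks in last or middle introns and at least 1000 usable bases in each, 2824 peaks lay in last introns, where 3396 would lie if each gene's peaks were spread over its own last and middle introns by usable length. That is 0.831 of the expected number (0.801 to 0.863). Of these genes, 3487 had peaks in middle introns alone, 285 in the last intron alone and 1140 in both. Restricted to genes with a peak summit at an annotated transcript end, the ratio of last to middle introns was 0.832 (0.801 to 0.865).

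The gap between last and middle introns varied with intron length. For last introns of up to 1 kb the density was 0.0416 per kb (0.0319 to 0.0535), against 0.0717 (0.0676 to 0.0761) for middle introns of that length. For 1 to 3 kb it was 0.0445 against 0.0718, and for 3 to 10 kb 0.0581 against 0.0838. Between 10 and 30 kb the densities were alike within counting error, 0.0752 (0.0705 to 0.0800) in last and 0.0754 (0.0741 to 0.0768) in middle introns. Over 30 kb it was 0.0468 in last against 0.0553 in middle introns, so the gap was widest in introns of up to 3 kb. First introns of 1 to 3 kb stood far above both, with 0.176 per kb.

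In the 7208 transcripts with 10 or more introns, the decline toward the end of the gene was gradual. The density was 0.0944 per kb in the first intron and 0.0721, 0.0717, 0.0701 and 0.0679 in the next 4. Counting back from the end, it was 0.0526 (0.0497 to 0.0557) in the last intron, 0.0578 (0.0548 to 0.0610) in the intron before it, and 0.0617, 0.0677 and 0.0664 in the 3 before that. The intervals of the last intron and of the one before it overlapped, which alone does not show that the densities were alike. Their ratio was not computed. Median lengths were close at this end, 1308 bp for the last intron and 1227 bp for the one before it.

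**Figure D1:**
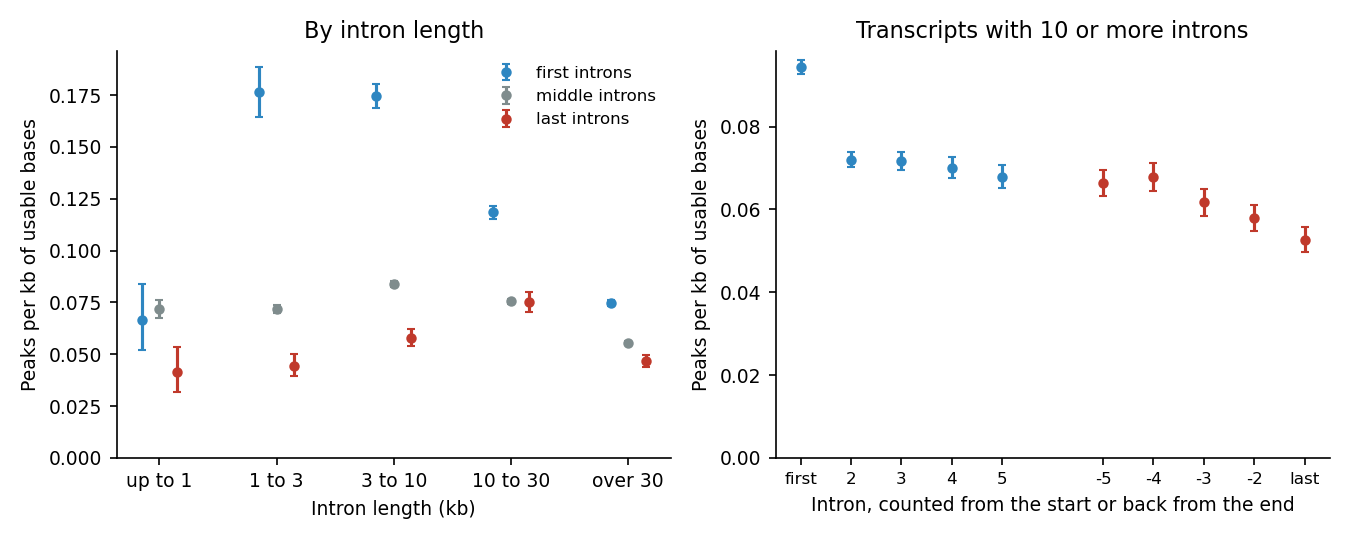
Peaks per kb of usable intron bases, as points with 95% Poisson intervals, by intron length in kb for first, middle and last introns (left), and by intron counted from the start or back from the end in transcripts with 10 or more introns (right). Last introns lie below middle introns of the same length except from 10 to 30 kb (0.0752 and 0.0754 per kb), and density falls toward the last intron.

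Within the last intron, peaks favoured the 5′ side. The third of the intron nearest the last exon held 816 members, 25.7% (24.2 to 27.2), but 34.0% of usable bases. The third nearest the 5′ splice site held 1272 members, 40.04% (38.3 to 41.8), on 31.6% of usable bases. With each intron cut into 10 equal parts, density fell from 0.0781 per kb (0.0705 to 0.0863) in the first part to 0.0410 (0.0358 to 0.0467) in the last. The first 3 parts had 1.75 times (1.60 to 1.93) the density of the last 3.

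Density fell along other introns as well. The same ratio was 1.48 (1.44 to 1.51) in middle introns and 1.95 (1.88 to 2.02) in first introns. In middle introns density rose again at the 3′ end, from 0.0508 (0.0491 to 0.0525) in part 9 to 0.0617 (0.0599 to 0.0636) in part 10, whereas in last introns it was 0.0383 (0.0335 to 0.0437) and 0.0410. Counted in bases, the stretch from 500 to 2000 bp before the terminal exon was the sparsest, with 0.0406 per kb at 500 to 1000 bp and 0.0392 (0.0344 to 0.0444) at 1000 to 2000 bp from the 3′ splice site, against 0.0820 (0.0757 to 0.0886) at 5000 to 10000 bp. At the other end, the first 500 bp after the 5′ splice site had 0.0575 per kb (0.0504 to 0.0655) and the stretch from 2000 to 5000 bp had 0.06996 (0.0650 to 0.0752). Bases far from a splice site exist only in long introns, while short introns fill the nearer stretches. Last introns of up to 1 kb had 0.0416 per kb and those of 10 to 30 kb had 0.0752. Distance in bases and intron length were therefore not separated here.

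**Figure D2:**
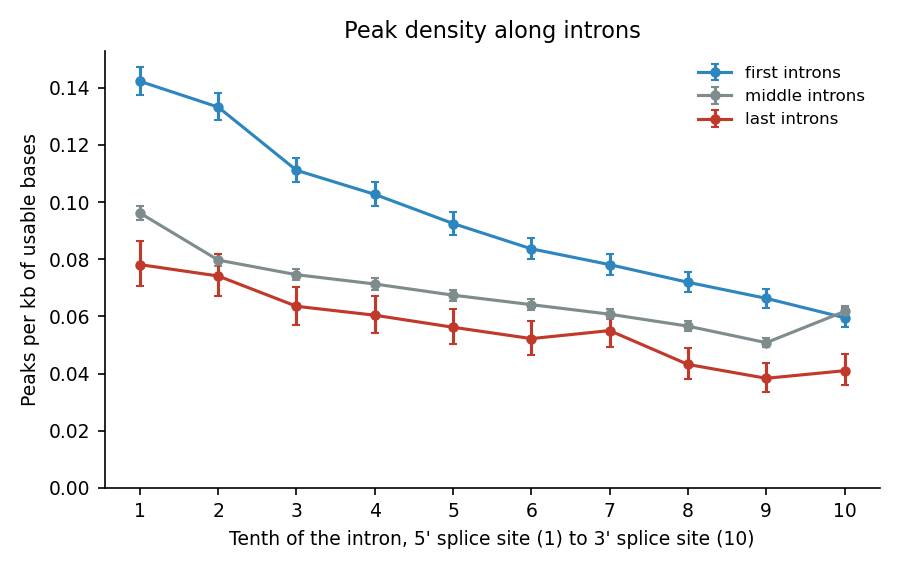
Peaks per kb of usable bases in each of 10 equal parts of the intron, from the 5′ to the 3′ splice site, for first, middle and last introns, with 95% Poisson intervals. All fall from the first part to the last, last introns from 0.0781 to 0.0410 per kb, and middle introns rise in the final part to 0.0617, while the intervals of last introns in the final 2 parts overlap (0.0383 and 0.0410).

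Signal hexamers were more frequent at last-intron peaks than in last-intron sequence at large, and less frequent than at transcript ends. The 12 hexamers of the study, spelled out below, were searched in the 100 bases that end at the 3′ edge, on the gene strand. At least 1 was found at 2056 members, 64.7% (63.0 to 66.4). The share was 66.4% in middle introns, a difference of -1.64 percentage points (-3.37 to 0.0562), 58.9% in first introns and 88.1% at canonical transcript ends. All 559131 windows of 100 bp that tile the usable last-intron sequence gave a base level of 40.8%. The same search on the opposite strand, in the 100 bases that end at the other edge of the peak, gave 46.8% for members. GC content was 38.3% in the 100 bases of members and 41.4% in the windows, and its part in the hexamer share was not tested.

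AATAAA alone stood at 978 members, 30.8% (29.2 to 32.4), against 7.75% of all windows and 14.1% of members on the opposite strand. AAGAAA was found at 454 members (14.3%), ATTAAA at 404 (12.7%), AATGAA at 280, TATAAA at 263 and AATATA at 238. The rarer ones were AGTAAA at 209 members, AATACA at 178, CATAAA at 166, AATAGA at 157, GATAAA at 153 and ACTAAA at 132. A single kind was held by 1010 members, 665 held 2 kinds, 276 held 3 and up to 6 were found together.

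AATAAA started most often 10 to 39 bp before the edge. Of its starts before last-intron edges, 493 lay 20 to 29 bp before the edge, 309 lay 10 to 19 bp and 157 lay 30 to 39 bp, and 28 to 65 in each further 10 bp. The most frequent start was 21 bp before the edge in last and middle introns and 23 bp at transcript ends. AATAAA started 10 to 40 bp before the edge at 764 members, 24.0% (22.6 to 25.6), against 23.9% in middle introns (difference 0.103 percentage points, -1.40 to 1.67), 17.6% in first introns and 54.2% at transcript ends.

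The bases past the edge differed from those of transcript ends. Adenine made up 48.9% of the first 10 bases in last introns, 53.6% in middle introns and 24.3% at transcript ends. At least 7 of those 10 bases were A at 1049 members, 33.02% (31.4 to 34.7), a difference of -7.08 percentage points (-8.75 to -5.37) from middle introns, against 2.46% at transcript ends. A run of 6 or more A in the first 20 bases was found at 22.3% of members and 1.75% of transcript-end peaks. The filter on A stretches had already been applied to all of these peaks. Short A tracts are where an oligo-dT primer can bind inside a transcript, and their part in the members was not tested.

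Members with and without the signal differed in the same measures. The 764 members with AATAAA 10 to 40 bp before the edge had 7 or more A in the first 10 bases in 13.7% (11.5 to 16.4) of cases, against 41.9% (39.1 to 44.8) of the 1121 members with no hexamer. TTTTT in the 40 bases past the edge was found at 19.2% of the former and 5.98% of the latter, a difference of 13.3 percentage points (10.2 to 16.5), with 18.9% at transcript ends. TGTGT or GTGTG was found at 10.5% and 7.31% of them, a difference of 3.16 percentage points (0.566 to 5.90). Base composition parts these sets too: GC content of the 100 bases was 32.2% ± 7.56 (SD over peaks) with the signal and 45.9% ± 9.30 without a hexamer.

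A stretch of 18 or more A on the opposite strand, past the other edge of the peak, was found at 234 members, 7.37% (6.51 to 8.33), against 4.20% in middle introns. The share was 17.04% among members with no hexamer and 1.05% among those with AATAAA at 10 to 40 bp. Where a gene lay on the opposite strand it was 16.1% of 397 members, against 6.12% of the other 2780. The rule of selection looked at the gene strand alone.

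**Figure D3:**
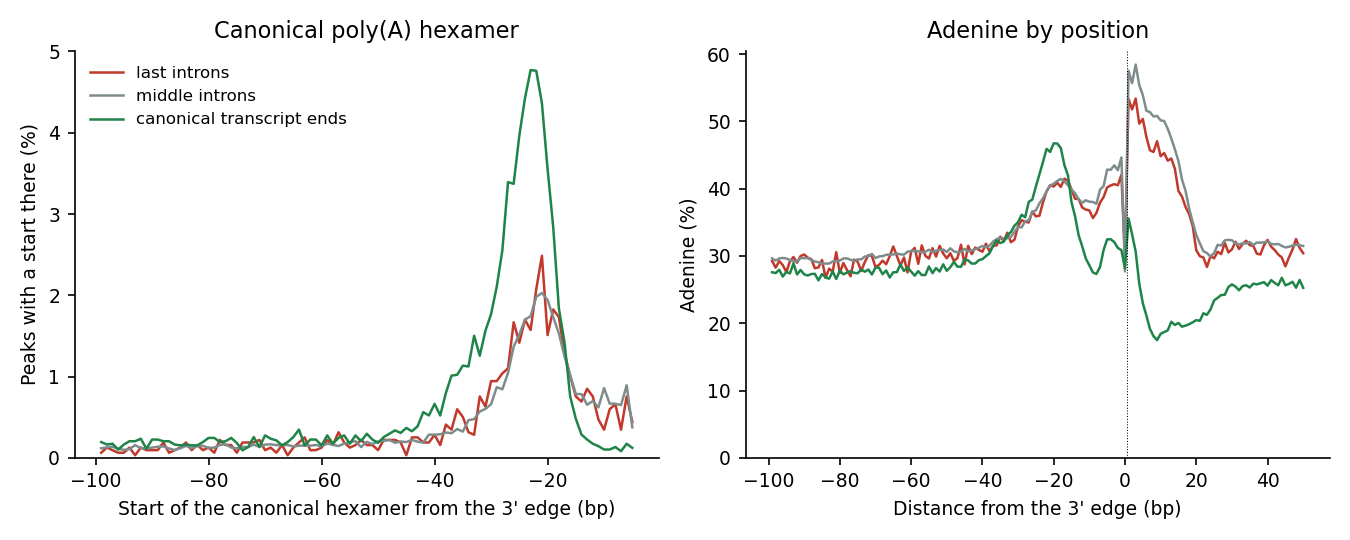
Share of peaks in which the canonical hexamer starts at each distance before the 3′ edge (left) and share of adenine by distance from the 3′ edge (right), for last introns, middle introns and canonical transcript ends. The hexamer peaks at 21 bp in last introns and 23 bp at transcript ends, and adenine in the 10 bases past the edge averages 48.9% in last introns and 24.3% at transcript ends.

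Most last-intron peaks were low. The median was 10 reads at the summit, the quartiles were 7 and 14, and the range was 3 to 58. Middle introns had a median of 9 reads, first introns 12 and canonical transcript ends 21. At least 20 reads were reached by 341 members, 10.7% (9.70 to 11.9), against 8.06% in middle introns and 54.2% at transcript ends. Median height differed little with the signal: it was 10 reads with AATAAA at 10 to 40 bp and 9 with no hexamer. A hexamer was held by 64.5% (59.3 to 69.4) of the members with at least 20 reads and 58.2% (54.5 to 61.8) of those under 7 reads. AATAAA stood at 32.6% (27.8 to 37.7) of the former and 23.6% (20.6 to 26.8) of the latter, and at 10 to 40 bp at 22.3% and 17.5%. At least 7 of the first 10 bases past the edge were A at 23.8% (19.5 to 28.5) and 39.6% (36.0 to 43.2) of them. The median member was 106 bp wide and the widest 968 bp.

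Of the genes with a member, 1446 also had a peak summit in a transcript-end window of any of their transcripts. The tallest last-intron peak of these genes had a median of 12 reads and the tallest transcript-end peak a median of 22. The median ratio of the former to the latter was 0.537, with quartiles of 0.368 and 0.789. As height counts distinct starts more than abundance, this ratio does not measure how often each end was used. In 1220 genes the last-intron peak was the lower, in 46 both were equal and in 180 (12.4%) the last-intron peak was the taller. Over these genes the heights had a Spearman correlation of 0.359, given as a description, since both come from the same libraries and depend on expression. The other 212 genes had no summit in a transcript-end window, though in 16 of them a peak from outside reached into one.

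**Figure D4:**
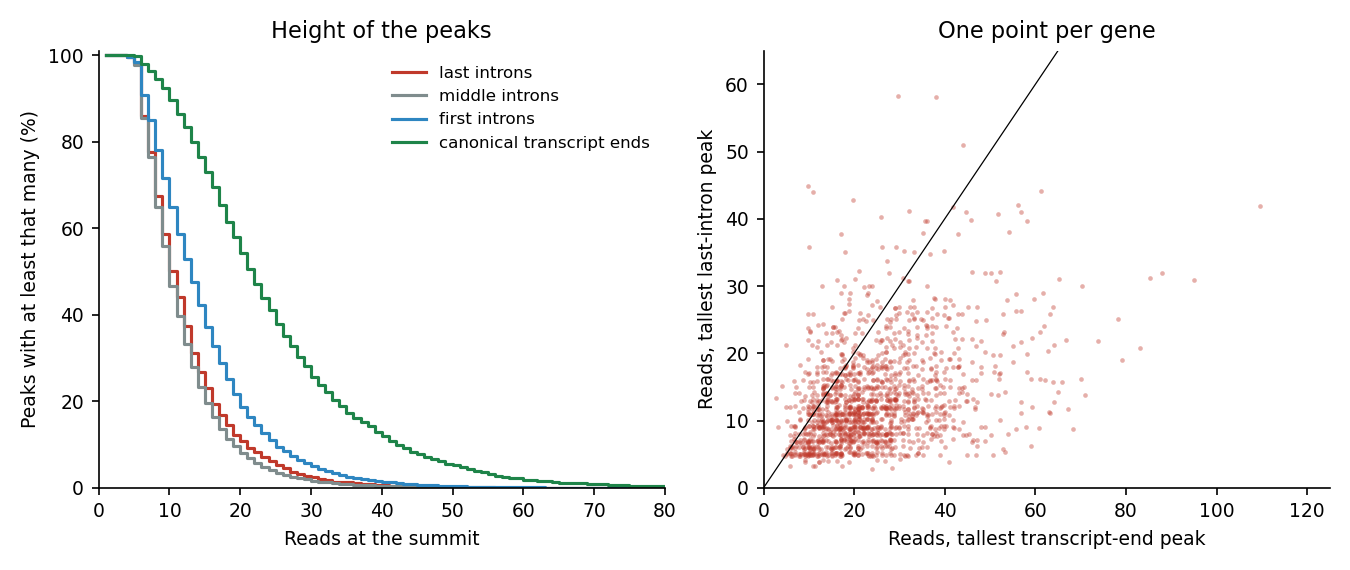
Share of peaks with at least a given number of reads at the summit (left), and reads of the tallest last-intron peak against those of the tallest transcript-end peak for the 1446 genes with both, with equality as a line and points shifted at random by under 0.5 reads to part ties (right). Last-intron peaks follow middle-intron peaks and lie far below transcript ends, and 180 genes lie above the line.

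The genes whose last-intron peak most exceeded their transcript end were TIMM23B, PRDX2, ENSG00000270249, ADGRE3 and LEO1, with 50, 44, 39, 38 and 36 reads, and none had a summit in a transcript-end window. TIMM23B is a copy of a mitochondrial import channel gene, and its reads can be shared with near-identical sequence. It had 5 members of 33 to 50 reads, and a peak of 19 reads reached into its transcript-end window from a summit just outside. PRDX2 encodes an abundant peroxiredoxin. Its single member lay under another gene on the same strand and one on the opposite strand, so its source is uncertain. The member of ENSG00000270249, a gene without a symbol, also lay under another gene on the same strand. ADGRE3, an adhesion receptor gene of myeloid cells, had its 38 reads in an intron with no peak at its end. LEO1 is the case described above, in which the peak itself reached the annotated end.

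By −log10 q, the leading members were those in FMO4 (50.2), TSPAN11 (45.3), CDC34 (45.1), ZNF736 (43.6), ADGRE3 (41.0), ENSG00000255872 (40.2), CENPC (39.3), TAFA5 (37.4), ZNF141 (35.9) and NCAPH (35.8). CDC34, a ubiquitin-conjugating enzyme, had 58 reads against 30 at its transcript end, the greatest height of any member and shared with FOSL1, where a peak that reached into an exon had 58 against 38. FOSL1 was named after its value was seen. The member in TSPAN11 lay under a gene on the opposite strand. The CDC34 peak held AATGAA and AAGAAA but no AATAAA. In CENPC, which encodes an inner kinetochore protein, the member had 36 reads against 26 at its tallest transcript end. The canonical transcript end of CENPC had 14. TAFA5, a secreted neuronal protein gene, had 31 reads in both places, and NCAPH had 42 in both. The transcript-end peak of NCAPH lay at the end of another annotated transcript, and its canonical transcript end had no peak summit. In FMO4 the member stood alone: 34 reads in the last intron, 326 bp before the terminal exon, and no peak at any annotated end.

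The amount of protein behind the last intron varied between genes. In genes with a member, the last exon held a median of 11.5% of the coding sequence, against 9.65% over all genes, and a median of 52 residues. In 111 genes with a member (6.69%) the last intron lay after the stop codon, so that the coding sequence was whole before it. Over all genes this was 6.92%. NCAPH kept 2.56% and CENPC 2.40% of their coding sequence in the last exon, while ZNF736 kept 82.4% and ZNF141 84.1%, since the zinc fingers of such genes lie in a single large terminal exon.

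Long last introns held many members each. A single member was found in 1081 genes, 2 to 4 in 468 genes and 5 or more in 109 genes, which held 880 members or 27.7%. The median last intron was 7866 bp in genes with a member and 1379 bp over all genes. The share of genes with a member rose from 0.920% for last introns of up to 1 kb to 19.9% for 3 to 10 kb and 69.0% over 30 kb. KCTD16, a GABA-B receptor auxiliary subunit gene, led with 34 members in an intron of 266 kb. LINGO2 had 30, WWOX 28, ARL15 27 and CCSER1 25, in introns of 345, 779, 226 and 513 kb. These were low peaks: medians were 8, 7, 8, 7 and 6 reads in the same order, and no member in the 5 genes exceeded 16 reads. The tallest transcript-end peaks of these genes had 14, 15, 14, 19 and 9 reads. A hexamer stood at 23 of 34 in KCTD16, but AATAAA 10 to 40 bp before the edge at only 4. In WWOX, a gene over a common fragile site, density was 0.0378 per kb, below that of all last introns, while KCTD16 had 0.129.

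Of the genes at the centre of the study, only BRCA1, described below, had a last-intron peak. CDK12, CDK13, BARD1, BLM and PCF11 had none, and CCNK, the cyclin K gene, had no usable base in its last intron. MYCN has too few introns to be included. Their transcript ends were seen, with 19 reads for CDK12, 28 for CDK13, 15 for BARD1, 29 for BLM, 57 for PCF11, 39 for CCNK and 100 for MYCN. The room for such peaks was small: at the density of all last introns, the usable bases of CDK12 (3118) would hold 0.174 peaks, those of BLM (2223) 0.124 and those of BARD1 (1356) 0.0756. A count of 0 therefore says little about these genes. Over the 7 genes with 3 introns or more, BRCA1 among them, 0.505 peaks would lie at that density, and 1 was found.

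BRCA1, which acts in homologous recombination, had 1 member, at chr17:43046239-43046343 on the - strand in its 22nd and last intron. It had 18 reads against 26 at the transcript end, held no hexamer, and all 10 bases past the edge were A, with 17 A in the richest 25. The last exon of BRCA1 holds 2.18% of the coding sequence.

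Of the study's DNA damage response (DDR) list, 142 genes had 3 introns or more and 12 had a member, 8.45% (4.90 to 14.2), beside 10.3% (9.88 to 10.8) of all genes. A transcript-end peak was found for 137 of the 142, against 11784 of all 16027 genes. Among genes with such a peak the shares were 8.03% (4.54 to 13.8) of the list and 12.3% (11.7 to 12.9) of all. The list had shorter last introns, with a median of 1134 bp against 1379 bp over all genes. The part of length in the shares was not tested. The density of the list was 0.0488 per kb (0.0294 to 0.0762), beside 0.0558 for all last introns and 0.0695 in genes with a transcript-end peak. FANCC, of the Fanconi anaemia core complex, had 30 reads against 18, but under a gene on the opposite strand. POLH, a translesion polymerase, had 28 against 41, also under a gene on the opposite strand and with no hexamer. DCLRE1C, the Artemis nuclease, had 25 against 33. MUTYH, an adenine glycosylase, had 24 under a second gene, in a peak whose 3′ edge lay in a transcript-end window of the same strand. Another peak, of 55 reads, reached the transcript-end window of MUTYH. RAD23B had 23 reads against 25, with 10 A of 10 past the edge, and PMS1 had 19 against 39. Further members of the list were in ERCC8, MNAT1, XPA and XRCC4, which the rule for named genes did not pick.

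The genes that the study called for premature cleavage and polyadenylation (PCPA list) came from nascent RNA libraries of the same cells and drug. Of 717 with 3 introns or more, 136 had a member, 19.0% (16.3 to 22). Among genes with a transcript-end peak the shares were 18.8% (16.1 to 21.9) of the list and 12.3% (11.7 to 12.9) of all. The list had longer last introns, with a median of 2286 bp against 1379 bp. Its density was 0.0989 peaks per kb (0.0879 to 0.111), against 0.0558 for all last introns and 0.0695 in genes with a transcript-end peak. Its median number of members per gene was 0, as for all genes. The tallest were in ZNF397 (41 reads), CENPC (36) and ZNF695 (32, under a second gene on the same strand). Expression was not matched between the list and all genes, and its part in the difference was not tested. The list also held many genes whose symbol starts with ZNF, a group described under other observations. Their part in the difference was not tested either.

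The other lists held few members, and all their intervals included the 10.3% of all genes. Of 23 cleavage and polyadenylation factors, 3 had a member. CPSF6, a cleavage factor subunit, had 28 reads against 38 at the transcript end, with AATAAA 35 bp before the edge. Those 38 reads lay at another transcript end than the canonical one, which had no peak summit. SCAF4, a CTD-binding protein that curbs early polyadenylation, had 25 against 29, or 18 at its canonical transcript end, with AATAAA 20 bp before the edge. CSTF1 had 14 against 21. Of 21 splice-site recognition factors only U2AF2 had one, whose summit lay 15 bp before the terminal exon and which reached into it, also under a gene on the opposite strand. Of 32 homologous recombination and Fanconi genes, BRCA1 and FANCC had one.

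Of 54 receptor tyrosine kinase genes, 4 had a member, led by ROR1 and EPHB4 with 7 reads each and IGF1R with 5. The ROR1 peak lay under a gene on the opposite strand. Of 14 neuroblastoma transcription factors, 3 had a member: ISL1 had 21 reads against 55 at the transcript end, KLF7 17 against 52 and PBX3 11 against 37. The canonical transcript end of KLF7 had no peak summit. Of 34 chromatin writers and remodellers, 5 had a member, with 17 reads in ARID2 against 16, 12 in ARID1A against 43 and 9 in EZH2 against 22. The canonical transcript end of ARID1A had 29 reads. The members in ARID1A and EZH2 reached into an exon, and the 3′ edge of that in EZH2 lay in a transcript-end window of the same strand. Of 33 neuronal adhesion and synapse genes, 5 had 15 members in all, with a median last intron of 3390 bp, and these were low: 14 reads in NRXN2 and 10 each in CNTN1 and LSAMP were the highest.

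**Figure D5:**
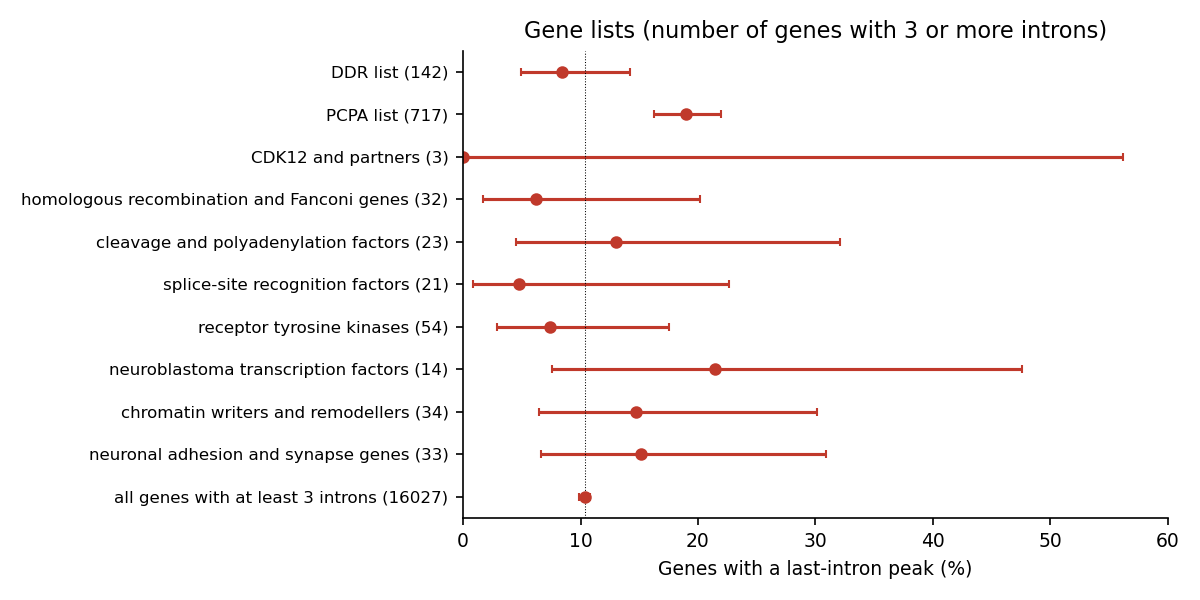
Share of genes with a last-intron peak in each gene list, with 95% Wilson intervals and the number of genes with 3 or more introns in brackets; the dotted line is the share of all such genes, 10.3%. The PCPA list, at 19.0%, is the list whose interval lies above the line.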

How the data were processed

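Poly(A) 3′-seq libraries (QuantSeq REV) of IMR-32 cells were analysed from the authors' single list of peaks. Per the labels and the study's methods, the authors mapped reads to GRCh38 with STAR 2.5.1b, keeping reads with up to 20 placements, handled them with SAMtools and deepTools 2.5.4, merged all samples and called peaks with MACS2 2.1.1, extending reads to 100 bp, without a control. The deposited fold is the ratio of pileup plus 1 to local background plus 1. The deposited −log10 p-value and −log10 q-value are those of the summit, and the deposited score was not used.

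Here the pileup was solved from fold and −log10 p (largest misfit 0.000172), a step tested on simulated data. Genes, introns and transcript ends were those of Gencode release 44 (the study used 27), with the canonical transcript. A base in several introns counted as last before first before middle. Coordinates are 1-based. Sequences came from GRCh38. Tools were Python 3.11.15, pandas 2.3.3, SciPy 1.17.1 and pysam 0.24.0. Intervals are 95%: Wilson for shares, Newcombe for differences, exact Poisson for rates and conditional binomial for ratios. No p-value was computed, since the list has no replicates, and depth per library is unknown.

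The members, gene lists and tests were chosen with earlier results of these data known. Named genes were those of the 10 members with the highest −log10 q, the 5 genes with most members, the 10 tallest members with AATAAA 10 to 40 bp before the edge, the 3 tallest of each gene list (8 for DDR), the 5 that most exceeded their transcript end, and CDK12, CDK13, CCNK, MYCN, BARD1, BLM, BRCA1 and PCF11. Some genes and sequences that these rules picked are not reported here. Of 260 entries of the DDR list 17 matched no single gene, and of 809 PCPA identifiers 803 matched. Alternatives were other q cutoffs, A limits, windows, transcripts and strands.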

Additional observations from a re-analysis of the deposited data

How the results depend on the processing

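No paired analysis was possible because all libraries were pooled before peak calling, and no replicate could be left out for the same reason. The difference in hexamer share between last and middle introns kept its sign and stayed within its own interval under all 12 alternatives tried. In 2 of them, unlike as reported, its interval left out 0: -3.34 to -0.0377 with the narrower transcript-end window and -3.59 to -0.0717 with no base of the peak in an exon or window. Other results moved in 31 of 73 cases, where a number of peaks counts as moved past 1.5-fold and any other value outside its reported interval. By that measure 4258 peaks with 22 of 25 A as the limit and 4580 with none, against 3177, did not count. With −log10 q of at least 5, 2107 peaks were left, 0.0370 per kb, 67.4% with a hexamer, a median of 12 reads and 7.84% of genes with a peak. With −log10 q of at least 20, the values were 85 peaks, 0.00149 per kb, a last-to-middle ratio of 0.889 (0.705 to 1.11), 77.6% with a hexamer, a median of 27 reads, 28.2% in the third nearest the last exon and 0.512% of genes. With 22 of 25 A as the limit they were 0.0747 per kb, 57.9% with a hexamer and 12.3% of genes, and with no limit 0.0804 per kb, 55.3% and 12.8%. The narrower transcript-end window gave 11.3% of genes. The longest transcript gave a ratio of 0.866 and 10.96% of genes. Peaks with no gene on the opposite strand gave 8.95% of genes. The hexamer share was 30.8% for AATAAA alone and 54.4% in 50 bp.

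Alternatives added after the data were seen: with 1 gene on the strand, 9.42% of genes; with no base of the peak in an exon or transcript-end window, 0.0531 per kb, 24.0% in the third nearest the last exon and 9.66% of genes; in genes with a transcript-end peak, 0.0695 per kb, 66.8% with a hexamer and 12.3% of genes. Fewer peaks or genes enter under each, by construction. The ratio of last to middle introns was under 1 in all 10 alternatives in which it was computed, and its interval lay below 1 in 9, the exception being −log10 q of at least 20. Peak height is limited by the caller's handling of duplicate starts, so low counts bound the precision of each peak.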

Other observations

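Zinc finger genes were frequent among the genes with last-intron peaks, a group picked after its members were seen in the list by −log10 q. Of 426 genes whose symbol starts with ZNF and a digit, 126 had a member, 29.6% (25.4 to 34.1), with 0.107 peaks per kb (0.0940 to 0.122), beside 10.3% and 0.0558 over all genes. In 339 of these genes more than 50% of the coding sequence lies in the last exon, and 114 of the 339 had a member. Over all genes grouped by the coding share of the last exon, density was 0.0482 per kb (0.0414 to 0.0557) where the last exon holds none, 0.0532 up to 10%, 0.0531 from 10 to 50% and 0.0833 (0.0759 to 0.0913) over 50%. Of the 459 members in the group over 50%, 199 lay in the ZNF genes, which had 0.111 per kb (0.0962 to 0.128) there. Some ZNF genes with a member, such as ZNF397 and ZNF695, are also in the PCPA list. The values of these groups are therefore not independent.

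The 1403 last-intron peaks removed for an A stretch had a median of 9 reads and a highest value of 29, against a highest value of 58 in members. A hexamer stood at 33.9% (31.4 to 36.4) of them, under the 40.8% of all 100 bp windows of usable last introns, and AATAAA 10 to 40 bp before the edge at 5.35%. GC content of the 100 bases was 46.9% at the removed peaks and 41.4% in those windows, and its part in the hexamer share was not tested. Members were spread over 1125 bins of 1 Mb, of which 35 held 10 or more, together 16.0% of members.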
